A study of Brassica oleracea var. italica with 48 samples.

Results

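In leaves of broccoli kept on potassium, 135 genes lost transcript between day 1 and day 6 of the experiment while their day 6 level in leaves and their level in roots stayed close in starved and control plants. They are 135 of the 60586 features of the deposited table, or 0.223%. Levels are given in TPM, a unit that corrects the reads of a gene for its length and expresses them as a share of the library. A log2 difference of means is taken between the log2(mean TPM + 1) of 2 groups. The genes were selected on these differences. In control leaves the mean of day 6 had to lie at least 1.2 below that of day 1, all 4 libraries of day 6 had to lie below all 4 of day 1, and the mean of day 3 had to lie between. Starved and control plants had to differ by less than 0.5 in leaves on day 6 and in roots on each of the 3 days. The fall in control leaves and the small differences between starved and control plants in those 4 comparisons are therefore the choice itself and are described without a test.

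The study follows wild-type plants of Brassica oleracea var. italica, a crop of the cabbage family. Seedlings grew for 6 days on MS plates and for 7 days in hydroponics with 2 mM K2SO4, with 16 h of light and 8 h of darkness, and part of them then moved to medium lacking potassium. RNA of leaves and roots was sequenced on days 1, 3 and 6 after that transfer, with 4 libraries lettered a to d in each of 12 groups. The groups are starved and control leaves, and starved and control roots, of day 1, day 3 and day 6, all of the wild type and all raised on potassium before the transfer. Neither the position of the leaf sampled nor the number of plants in a library is given in the sources used here, so leaf age here means the day of sampling. The deposited IDs matched 0 of the 53125 genes of the RefSeq table of names, so genes are given by ID, without names or roles, and the tissue labels were not checked against named markers.

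A young leaf first makes cells and cell walls, then expands, and then builds up the machinery of mature photosynthesis, and transcripts of the early programme decline as it matures. Potassium is the main inorganic cation of plant cells. It drives cell expansion, stomatal movement and the activity of many enzymes, and a plant short of it moves potassium out of older leaves. Which of these processes the 135 genes serve was not analysed here.

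Libraries held 18350942 to 20160203 reads in leaves and 13819010 to 19735733 reads in roots, as recovered from the TPM values. In 5 libraries the estimated quality, a limma array weight, was under 0.2 (0.0817 to 0.194). These were library d of starved leaves on day 1, b of control leaves on day 1, a of control leaves on day 3, d of starved roots on day 3 and a of control roots on day 1. Counts that differ without them by more than 1.5 times are given beside the result.

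The selection started from 303 genes with a log2 difference of -1.2 or lower in control leaves. Of these, 280 had no overlap between the 4 libraries of day 6 and the 4 of day 1, and 258 also had the mean of day 3 between. The limits on starvation left out 123 of the 258. Leaves of day 6 left out 54, of which 42 were higher and 12 lower in starved leaves, and 69 were left out by roots alone. The member nearest the limit of the fall stood at -1.21 and the nearest gene outside it at -1.199. The largest absolute difference between starved and control leaves of day 6 was 0.48 inside the limit, and the nearest gene outside it had 0.52. The set has no natural edge, and the 123 genes left out by starvation fell with age by the same rule. In coding length the 135 genes had a median of 942 bases and those 123 genes had 651 bases, against 1047 bases for all features tested in leaves.

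The size of the fall varied widely among the members. In control leaves the log2 difference of day 6 minus day 1 ranged from -3.84 to -1.21 with a median of -1.43 and quartiles of -1.76 and -1.30. It was -2 or lower for 23 members. As a ratio of mean TPM, day 1 exceeded day 6 by 2.35 to 35.3 times, with a median of 4.40. Most members were transcripts of modest level, with a median of 6.81 TPM in control leaves of day 1 against 5.86 TPM for all features tested in leaves. Their range there was 1.98 to 897 TPM, and 7 members had 100 TPM or more.

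Summed over the 135 genes, the libraries of starved leaves held 3741, 3903, 4080.0 and 3742 TPM on day 1, and those of control leaves held 4224, 4565, 3731 and 4991 TPM. On day 3 the sum was 3036, 3272, 2011 and 2327 TPM in starved leaves and 2528, 2728, 2524 and 2968 TPM in control leaves. By day 6 the libraries of starved leaves held 1467, 1636, 1559 and 1262 TPM and those of control leaves 898, 939.9, 1724 and 1333 TPM. Every leaf library of day 6, starved or control, lay below every leaf library of days 1 and 3. The mean sum on day 6 was 1481 ± 162 TPM in starved leaves and 1224 ± 387 TPM in control leaves (SD, n = 4 each), and those libraries overlap. The 2 most abundant members held 34.5% of the sum in control leaves of day 1 and the 7 most abundant held 65.9%, so the sum describes few genes and the median over members describes the rest. RNA came from whole tissue, where fewer cells of a type and less RNA per cell cannot be told apart.

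**Figure D1:**
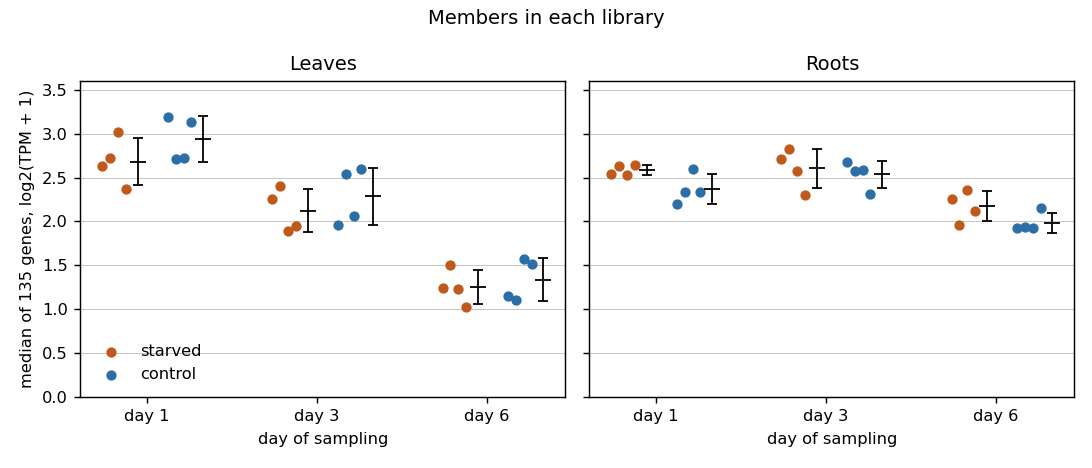
Median of log2(TPM + 1) over the 135 genes in each library, by day of sampling, for leaves on the left and roots on the right, with starved libraries left of control libraries and a bar at each group's mean. In starved leaves the lowest and highest library stood at 2.36 and 3.02 on day 1, 1.89 and 2.40 on day 3, and 1.02 and 1.501 on day 6, while the root libraries of all days stayed between 1.92 and 2.83.

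The gene with the largest fall was Bo8g108830, with 0.207, 1.22, 0.622 and 0.206 TPM in starved leaves of day 6 and 0.149, 0.359, 1.04 and 1.02 TPM in control leaves of day 6. On day 1 it had 13.5, 17.7, 30.37 and 10.06 TPM in starved leaves and 29.9, 15.4, 16.3 and 28.7 TPM in control leaves. Its level was thus near 1 TPM or under it in all 8 leaf libraries of day 6, and the log2 difference of day 6 minus day 1 was -3.60 in starved leaves and -3.84 in control leaves. Its control leaves of day 3 spread from 3.47 to 24.5 TPM, so the timing of its fall is not resolved.

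Bo1g103750 was both the second largest fall and the most abundant member. It had 129, 133, 113 and 76.8 TPM in starved leaves of day 6 and 68.8, 42.2, 147 and 91.4 TPM in control leaves of day 6. On day 1 it had 869.9, 652, 807 and 572 TPM in starved leaves and 880.4, 703, 743 and 1261 TPM in control leaves. All 8 leaf libraries of day 6 lay below all 8 of day 1, and starved and control libraries overlapped on both days. Roots held more of the transcript than leaves of day 6, with 621 ± 81.6 TPM in starved and 679.8 ± 88.5 TPM in control roots of day 6 and 1182 ± 48.3 TPM in starved and 838 ± 39.3 TPM in control roots of day 1 (SD, n = 4 each). In roots of day 1 the starved libraries, at 1120 to 1237 TPM, all lay above the control ones, at 799 to 889 TPM. That log2 difference of 0.495 lies just under the limit of 0.5.

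Bo6g091390, the second most abundant member, had a smaller fall. It had 365, 310.5, 304 and 321 TPM in starved leaves of day 6 and 159, 194, 311 and 265 TPM in control leaves of day 6, against 614 ± 96.4 TPM in control leaves of day 1 (SD, n = 4). Only 1 control library of day 6, library c, reached the starved ones, and the difference of 0.48 between starved and control leaves lies just under the limit of 0.5. The limit bounds the difference, and does not show that starved and control leaves are alike.

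**Figure D2:**
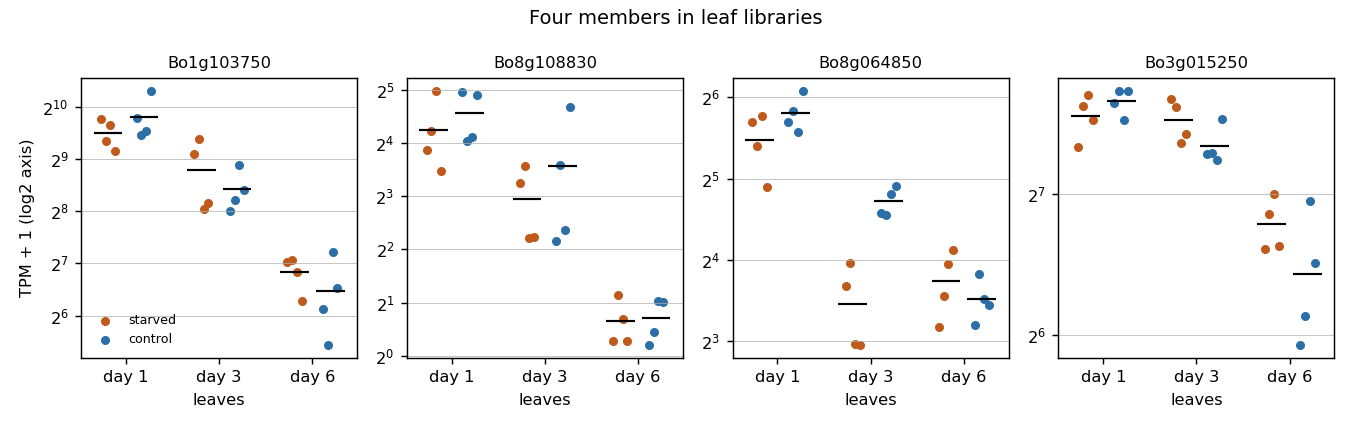
TPM + 1 on a log2 axis in each leaf library for Bo1g103750, Bo8g108830, Bo8g064850 and Bo3g015250, by day of sampling, with starved libraries left of control libraries. Bo8g064850 stood at 6.72 to 14.5 TPM in starved leaves of day 3, below the 22.5 to 28.9 TPM of control leaves of that day, whereas the other 3 genes overlapped between starved and control leaves on day 3.

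In control leaves a fall in both intervals was set by the selection, which required the mean of day 3 to lie between the others. How much of the fall was reached by day 3 was left free and is given as a description. In control leaves the median member had reached 45.7% of its log2 fall by day 3, with quartiles of 32.6% and 53.2%. The median log2 difference was -0.69 for day 3 minus day 1 and -0.84 for day 6 minus day 3. Starved leaves followed the same order, with the mean of day 1 above that of day 3 and that of day 3 above that of day 6 for 133 of 135 members, and with a median of 40.5% of the fall reached by day 3. Their whole fall was a median of -1.27, from -3.60 to -0.59, against 0.09 for all features tested in leaves. No overlap between day 6 and day 1 was found for 125 members in starved leaves, where 6.73% of all tested features have all 4 libraries of day 6 below all 4 of day 1. For control leaves the share of all tested features is 7.85%, and the choice itself sets it for the members at 135 of 135. The fall in starved leaves is given as a description, since the limit on day 6 ties it to control leaves.

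Neither starved leaves of day 3 nor those of day 1 entered the selection, so their difference was tested, with the spread between libraries estimated over all 24 leaf libraries, among them groups the selection used. The log2 fold change was negative for 134 of 135 members, whereas it was negative for 25.8% of all features tested. The median was -0.54 over the members, with quartiles of -0.72 and -0.40, and 0.17 over all features. With limma on log2(TPM + 1), where a gene is called at an adjusted p under 0.05 over all 25098 features, 16 members fell and 0 rose, against 0.414% of all features called lower and 1.9% called higher. Fitted over the libraries of these 2 groups only, 1 of 131 members tested was called lower and 0 higher, against 0.0172% and 0.0859% of all features, and at an unadjusted p under 0.05 the counts were 70 and 0, against 2.13% and 7.77%. In the fit over 24 libraries, 82 members were lower and 0 higher at an unadjusted p under 0.05, against 3.1% and 11.9% of all features, and voom on recovered reads called 42 lower and 0 higher, against 1.09% and 1.42%. Of the 135 members, 6 reached the 1 TPM filter only through libraries of day 1. Among the other 129, 128 were negative and 15 were called lower, with 79 at an unadjusted p under 0.05. All 4 libraries of day 3 lay below all 4 of day 1 for 36 members, and for 1.51% of all features. Among the 123 genes left out by starvation the median was -0.43 and 80.5% were negative, with 20 called lower and 1 higher. A fall by day 3 was thus not particular to the members. The count of 16 rests on single libraries, as it is 2 without library c and 4 without library d of day 3, and 5 without library b and 5 without library c of day 1. After rescaling each library by medians of ratios, the median over all features was -0.0038 and that over the members -0.71, with 53 members and 1.31% of all features called lower.

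**Figure D3:**
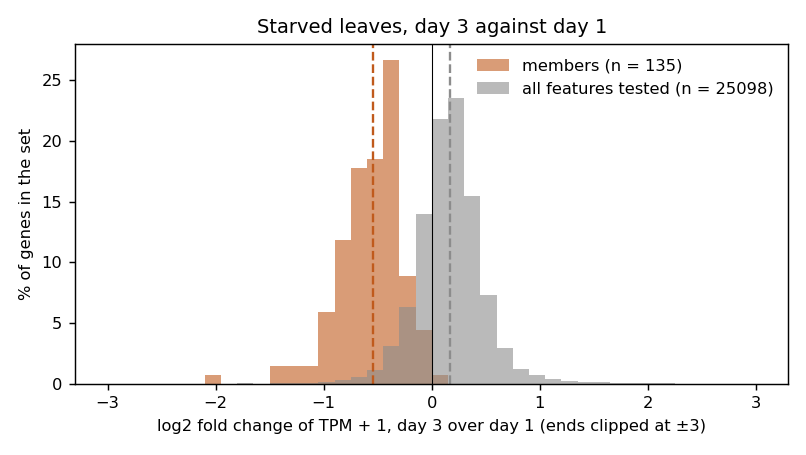
Share of genes in each set (%, y axis) by the log2 fold change of starved leaves, day 3 minus day 1 (x axis), for the 135 members and for all 25098 features tested, with dashed lines at the medians and values beyond 3 either way drawn at the ends. The members' median lies at -0.54 and that of all features at 0.17.

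Bo8g064850 had the largest change of these 16. It had 11.8, 14.5, 6.80 and 6.72 TPM in starved leaves of day 3 and 51.0, 41.1, 53.7 and 28.7 TPM in starved leaves of day 1. The libraries of the 2 days did not overlap, and by day 3 the level was already as low as on day 6, with 12.4 ± 3.76 TPM in starved leaves of that day (SD, n = 4). The log2 fold change was -2.05 with a standard error of 0.24 and a limma adjusted p of 6.68e-05, which stayed between 7.59e-06 and 0.0448 over the 17 alternatives run.

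The second largest, Bo8g036840, was a low transcript with 0.891, 3.58, 0.429 and 1.89 TPM in starved leaves of day 3 and 5.60, 4.72, 6.84 and 4.28 TPM in starved leaves of day 1. The 2 days did not overlap. Its log2 fold change was -1.36 with a standard error of 0.32 and a limma adjusted p of 0.0256, and 8 of 17 alternatives put it over 0.05, at up to 0.154.

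How steeply a member fell in control leaves and how far it had fallen in starved leaves by day 3 went together across the 135 members, at a Pearson r of 0.57 (Spearman rho 0.57). This describes genes within the same libraries, which share depth and normalization and are not independent replicates.

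Starvation on day 3 was also left free by the selection, except that the control mean of that day had to lie between those of day 1 and day 6. Of the 135 members 90 were lower in starved leaves than in control leaves of day 3, against 36.02% of all features, and the median log2 fold change was -0.07 over the members and 0.06 over all features. The members' median turned to 0.02 without library c of starved leaves, to 0.0003 without library b and to 0.05 without library d of control leaves. In limma 1 member was called lower and 0 higher, where 0.00797% of all features were called lower and 0.0478% higher. At an unadjusted p under 0.05, 8 members were lower and 0 higher, against 1.61% and 2.99% of all features, and voom called 1 lower and 0 higher, against 0.012% and 0.0319%. Leaving out the 5 libraries of low weight gave 0 lower and 0 higher. All 4 starved libraries lay below all 4 control libraries for 5 members, and for 1.23% of all features.

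The member called was again Bo8g064850, with the starved values of day 3 given above against 22.9, 22.5, 27.0 and 28.9 TPM in control leaves. The highest starved library lay below the lowest control library. The log2 fold change was -1.32 with a standard error of 0.24 and a limma adjusted p of 0.0335, from 0.00151 to 0.152 over 17 alternatives, of which 11 ended the call. Leaving out library c or d of starved leaves, or any 1 library of control leaves, ended it. With the replicate letter as a block, which pairs the samples on this day, the adjusted p was 0.0944. On day 6 the gene had 12.4 ± 3.76 TPM in starved leaves and 10.42 ± 2.098 TPM in control leaves (SD, n = 4 each), so the values of day 3 and day 6 differ in how starved and control leaves compare, and that difference was not tested.

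On day 1 the members stood slightly lower in starved than in control leaves, with a median log2 difference of -0.23 and 123 of 135 lower, against a median of -0.09 over all features. The control libraries of day 1 were used for being high, so no test was made. On day 6 the difference had a median of -0.04 with 53 members higher in starved leaves. In roots the medians were 0.13 on day 1, 0.05 on day 3 and 0.14 on day 6, and 91, 88 and 90 members were higher in starved roots on those days. These root values include the 36 members too low in roots to be tested. No median over all features was taken for roots or for leaves of day 6, so these values are not set against a general shift. In all 4 comparisons used by the selection, 34 members stayed within 0.25.

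Roots were free to change with the day, since the selection only bounds starved against control within a day. Of the 135 members 99 had at least 1 TPM in at least 4 root libraries and were tested there. The other 36 included 34 with less than 1 TPM in every root library, of which 1 was at 0 in all of them. In control roots of day 6 against day 1 the log2 fold change was negative for 90 of the 99, against 63.01% of all features, with a median of -0.35 over the tested members and -0.07 over all features. Limma called 9 lower and 1 higher, where 3.98% of all features were called lower and 2.27% higher, and at an unadjusted p under 0.05 there were 48 lower and 2 higher, against 11.4% and 6.48% of all features. All 4 libraries of day 6 lay below all 4 of day 1 for 26 of the 99 tested members, and for 6.7% of all features tested. Of the 123 genes left out by starvation, 115 were tested in roots, with a median of -0.31. Among those 115, 23 were called lower and 6 higher, so the fall in roots was not particular to the members either. The 9 members called lower became 0 without library c of day 1, 1 without library d of day 1 or library c of day 6, 3 without library a or b of day 6, 5 without library d of day 6, and 18 without library a of day 1. The 1 call higher was lost without library a of day 6 or library b or c of day 1. Without the 5 libraries of low estimated quality, 36 members were called lower and 2 higher, against 16% and 4.51% of all features. Voom on recovered reads called 6 lower and 1 higher, against 3.26% and 3.15% of all features. Rescaling by medians of ratios also gave 6 and 1, against 3.31% and 3.18%. Each of these 2 settings shared 5 of the 10 calls of the main fit.

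Among the falls in roots, Bo7g104810 had 2.06, 0.964, 1.201 and 2.19 TPM in control roots of day 6 and 3.35, 3.76, 3.84 and 3.58 TPM in control roots of day 1. No library of day 6 reached any of day 1. The log2 fold change was -0.86 with a standard error of 0.23 and a limma adjusted p of 0.0291, lost in 9 of 17 alternatives. In leaves the gene is among the abundant members, with 501 ± 65.3 TPM in starved and 542 ± 216 TPM in control leaves of day 1 (SD, n = 4 each).

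Bo2g001160 had 0.827, 0.618, 0.458 and 0.306 TPM in control roots of day 6 and 1.1003, 1.54, 3.15 and 1.45 TPM in control roots of day 1. The days did not overlap, though library c of day 1 stands high. Its log2 fold change was -0.82 with a standard error of 0.20 and a limma adjusted p of 0.0180, lost in 4 of 17 alternatives.

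Bo1g057530 went the other way, with 4.03, 2.13, 2.45 and 2.46 TPM in control roots of day 6 and 1.82, 0.887, 0.905 and 1.51 TPM in control roots of day 1. All 4 libraries of day 6 lay above all 4 of day 1, in the tissue where the gene is low, and the log2 fold change was 0.72 with a standard error of 0.18 and a limma adjusted p of 0.0152, lost in 4 of 17 alternatives. In control leaves it had 11.3 ± 3.45 TPM on day 6 and 55.5 ± 8.66 TPM on day 1 (SD, n = 4 each).

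**Figure D4:**
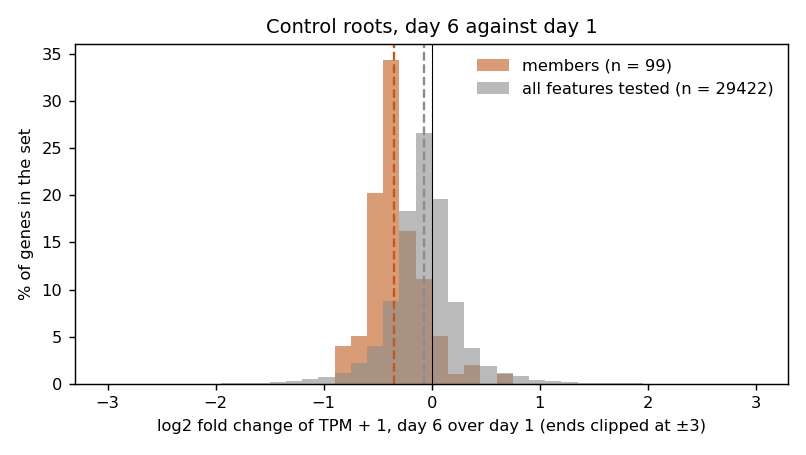
Share of genes in each set (%, y axis) by the log2 fold change of control roots, day 6 minus day 1 (x axis), for the 99 members tested in roots and for all 29422 features tested, with dashed lines at the medians and values beyond 3 either way drawn at the ends. The members' median lies at -0.35 and that of all features at -0.07.

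On day 3 the medians of the tested members and of all features both lay above 0 in control roots. The median log2 fold change of day 3 against day 1 was 0.14 over the 99 tested members and 0.08 over all features. In limma 0 members were called lower and 0 higher, where 0.683% of all features were called lower and 0.782% higher. At an unadjusted p under 0.05, 1 was lower and 8 were higher of 99, against 7.25% and 8.29% of all features, and voom called 0, against 0.826% lower and 0.683% higher. All 4 libraries of day 3 lay below all 4 of day 1 for 1 of the 99 tested members, and for 4.79% of all features tested. In starved roots, whose means the selection binds to those of control roots, the median log2 difference over the tested members was -0.39 for day 6 minus day 1 and 0.05 for day 3 minus day 1.

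The change in leaves was set against that in roots in starved plants, day 3 against day 1, a test added after the values had been seen. The leaf change minus the root change was negative for 131 of 135 members, with a median of -0.56 over the members and 0.19 over all features. Limma called 13 members with a lower change in leaves and 0 with a higher one, against 1.03% and 1.27% of all features. At an unadjusted p under 0.05 the counts were 68 and 0, against 5.12% and 11.8% of all features, and with voom 23 and 0, against 0.78% and 0.485%. Leaving out library c of starved leaves of day 3 left 4, library a of that group gave 21, and leaving out library d of it, library b of starved leaves of day 1 or library a of starved roots of day 3 left 8 each, while 7 were left without library a of starved roots of day 1. Without the 5 libraries of low estimated quality there were 24, against 0.922% of all features. Of the 123 genes left out by starvation, the main fit called 16 lower and 0 higher, with a median of -0.45. Bo8g064850 is one of the 13, with 111, 98.8, 117 and 155 TPM in starved roots of day 3 and 99.8, 93.3, 102 and 108 TPM in starved roots of day 1. Those root libraries overlap, whereas the leaf libraries of the same days do not, and the difference between the 2 changes was -2.29 with a standard error of 0.28 and a limma adjusted p of 1.09e-06.

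How much the members are leaf transcripts was read from starved leaves of day 1 against starved roots of day 1. The result depends on the scale. On TPM, limma called 66 members lower and 51 higher in leaves, where 71.4% of all features were lower and 15.9% higher, and the median log2 fold change was -0.43 over the members and -1.097 over all features. After rescaling by medians of ratios the members' median was 0.74 and that of all features -0.14, with 5 members called lower and 86 higher, against 41.9% and 33.2% of all features. Voom gave a members' median of 0.80 and also 5 lower and 86 higher, against 42% and 32.9%. Relative to the median of all features the members stood higher in leaves on each scale. On TPM the 123 genes left out by starvation had a median of -0.34, with 56 called lower and 44 higher. The selection required a level in leaves of day 1 high enough to fall, whereas all features include those that passed the filter through roots alone. This position is therefore in part set by the selection. On TPM, 94 members had a higher mean in roots than in leaves among starved plants of day 6, and 76 did on day 1. Among control plants the numbers were 91 on day 6 and 63 on day 1. Members were selected for a higher control leaf level on day 1 than on day 6, with starved leaves of day 6 near control. The larger numbers on day 6 than on day 1 thus follow in part from the selection. In starved plants of day 1 the log2 fold change on TPM was negative for 56.3% of members and 79.2% of all features. For the other numbers no share over all features was taken.

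At one end of this range, Bo6g091390 had 536, 605, 510.3 and 638 TPM in starved leaves of day 1 and 0.0843, 0.175, 0.0858 and 1.23 TPM in starved roots of day 1. Bo3g015250 had 159.9, 196, 206 and 183 TPM in those leaves and 0.166, 0, 0.0842 and 0.401 TPM in those roots. Leaf and root did not overlap for either gene, and the log2 fold changes were 8.75 with a standard error of 0.21 and 7.34 with a standard error of 0.15 (limma adjusted p 6.60e-33 and 4.24e-35).

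At the other end, Bo2g166310 had 8.20, 7.62, 9.68 and 3.33 TPM in starved leaves of day 1 and 54.1, 43.7, 50.8 and 50.1 TPM in starved roots of day 1. Bo9g164080 had 3.12, 3.45, 4.05 and 3.40 TPM in those leaves and 19.7, 24.3, 20.5 and 26.3 TPM in those roots. Every root library exceeded every leaf library, with log2 fold changes of -2.70 with a standard error of 0.25 and -2.39 with a standard error of 0.23 (limma adjusted p 5.20e-13 and 1.13e-12). All 4 genes kept their direction and call in 17 alternatives, rescaling and voom included.

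**Figure D5:**
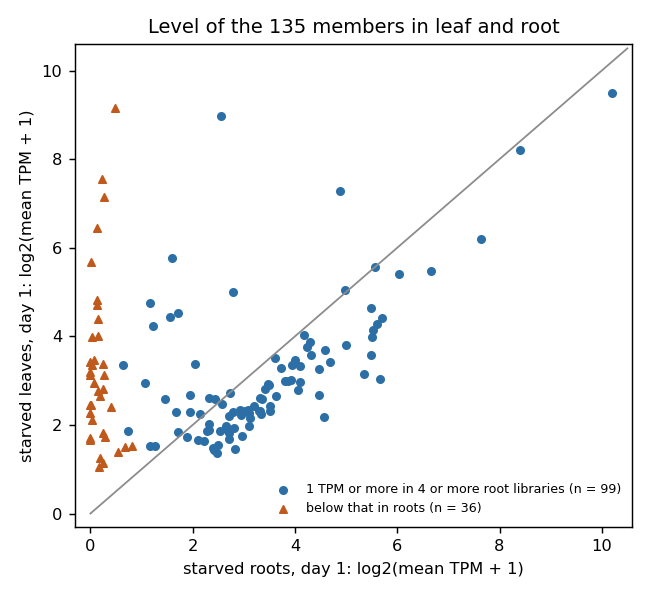
Level of each of the 135 genes as log2(mean TPM + 1) in starved leaves of day 1 (y axis) against starved roots of day 1 (x axis), with circles for the 99 tested in roots and triangles for the 36 that were not, and a line of equal level. Of the 135 genes, 76 lie below the line, with a higher mean in roots.

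The 99 members tested in roots and the 36 that were too low there to be tested had similar falls in leaves, with median log2 differences of -1.43 and -1.40 in control leaves of day 6 minus day 1 and of -0.54 each in starved leaves of day 3 minus day 1. They differed more in timing, as the median share of the control fall reached by day 3 was 49.2% for the 99 and 33.0% for the 36. In starved leaves those shares were 41.8% and 38.0%. No test was made of this split. Across the 99, the change of control roots and the change of control leaves between day 6 and day 1 gave -0.09 for Pearson r and 0.13 for Spearman rho, again across genes of shared libraries.

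The precision of single members is limited by their level. The median coefficient of variation among the 4 libraries of a leaf group was 27.7% to 34.8% over the 6 leaf groups. The median member had 73.3 reads in a library of starved leaves of day 3 and 124 in one of starved leaves of day 1. In control leaves it had 33.5 reads on day 6 and 146 on day 1, and 20 members averaged fewer than 10 reads in control leaves of day 6.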

How the data were processed

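Per the labels' protocols, total RNA was purified on columns, cleared of DNA by DNase and sequenced by DNBseq. STAR 2.7.10a, cutadapt 4.1 and FastQC 0.11.9 stand in the submitters' processing notes. No genome build, annotation or counting step is given in the labels or the file header. What the authors deposited is TPM with an equal total in every library, so a value depends on the other transcripts of the library. TPM keeps no depth, but its steps gave whole reads and coding lengths for the 44911 features that were above 0 in at least 2 libraries. Those reads serve for depth and voom only, and their precision covers counting error alone.

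The 48 columns were matched to libraries by the description labels. The 135 members were found by the stated selection on group means, with a pseudocount of 1. The members and the lists were chosen with earlier results of these data known. Genes were tested with limma 3.58.1 in R 4.3.3 (lmFit, eBayes with a trend) on log2(TPM + 1), which understates changes of low genes, with each group of a day and treatment as a term. A feature was tested if 4 or more libraries held 1 TPM or more, which gave 25098 over 24 leaf libraries, 29422 over 24 root libraries and 31520 over all 48. In leaves 135 members passed, of which 129 did so on the libraries of days 3 and 6 alone. P-values were adjusted by Benjamini-Hochberg over all tested features and called under 0.05. Of 6 comparisons tested, 5 were planned and the difference between tissues was added after the values had been seen. The procedure was also run on simulated leaf data with a fixed spread between libraries. That spread was not estimated from these libraries, so the run does not show how well the procedure finds changes in the members. The labels do not state that libraries of a group come from separate plants, so a p-value reflects only how far these samples scatter, which may be technical.

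Genes named are the 2 largest falls and 2 highest levels, and up to 2 rises and 2 falls per comparison, called and without overlap, by size. Letters were taken as pairs only for starved against control leaves of day 3, where the deviations of libraries of the same letter correlated at 0.215 to 0.696 for every letter, although the best match had the own letter for 2 of 4 libraries. The main test there had no pairing, and the replicate block fitted the letters over all libraries of the fit. Alternatives were no filter, rescaling by medians of ratios, a pseudocount of 0.1, voom on recovered reads, array weights, leaving out 5 libraries of low weight, subtraction of a trend with coding length per library, a fit of only the groups compared, a minimum log2 change of 1, each library left out in turn and a replicate block by letter, and, chosen after seeing the data, only members that pass the filter without day 1. Python 3.11.15, numpy 2.4.6, pandas 2.3.3, scipy 1.17.1 and matplotlib 3.10.9 were used.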

Additional observations from a re-analysis of the deposited data

Results flagged for a closer look

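In starved roots of day 1, Bo6g091390 had 1.23 TPM in library d, far from the other 3 libraries, which had 0.0843 to 0.175 TPM. The gap to the nearest library was 0.921 of the range of the group. It was the only such library in 37 groups of 4 tested, where chance gives about 1 in 20.

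The change of starved plants, day 3 against day 1, differed between leaf and root for 13 members, each with the lower change in leaves. Of all features, 1.03% were called with a lower change in leaves and 1.27% with a higher one. The difference was -2.29 for Bo8g064850, with a limma adjusted p of 1.09e-06.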

How the results depend on the processing

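The number of members was 207 with a pseudocount of 0.1, 208 with a fall of at least 1.0, 56 with a fall of at least 1.5 and 62 with starvation differences under 0.3, and 116 to 170 when 1 library was left out. For starved leaves of day 3 against day 1, 16 members were called lower, against 9 with no filter, 10 with a pseudocount of 0.1, 9 with the replicate letter as a block, 53 after rescaling by medians of ratios, 42 with voom, 52 with array weights, 6 at a minimum log2 change of 1, 1 with only the groups compared, and 2 to 19 without 1 library. The difference between tissues had 13, against 7 with a pseudocount of 0.1, 50 after rescaling, 23 with voom, 64 with array weights, 24 without the 5 libraries of low weight, 8 at a minimum log2 change of 1, 3 with only the groups compared, and 4 to 21 without 1 library. Of all features, 1.68% were called lower for that difference after rescaling and 0.418% with only the groups compared.

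For control roots of day 6 against day 1, 9 members were called lower and 1 higher, against 3 lower with no filter, 51 and 2 with array weights, 36 and 2 without the 5 libraries of low weight, 14 lower with the length trend removed, 0 and 0 at a minimum log2 change of 1, 2 and 0 with only the groups compared, and 0 to 18 lower and 0 to 1 higher without 1 library. With only the groups compared, 2 of 95 tested members were called lower in control roots of day 6, against 1.65% of all features, a similar share. Control roots of day 3 against day 1 had 9 called higher with array weights. For starved against control leaves of day 3 the 1 call became 0 with no filter, with a pseudocount of 0.1, with the block, without the 5 libraries and with only the groups compared, 4 with array weights, and 0 to 1 without 1 library, and the members' median of -0.07 became 0.017, 0.0003 and 0.054 without starved library c, control library b and control library d, the lowest without 1 library being -0.18. For leaves against roots, 66 lower and 51 higher became 5 and 86 both after rescaling and with voom, where the median was 0.74 and 0.80, and changed to 29 lower at a minimum log2 change of 1. The cause of these changes was not tested, other than fewer samples where libraries were left out. No share over all features was taken with no filter, a pseudocount of 0.1, the block, array weights or the length trend removed. Nor was it taken at a minimum log2 change of 1 or with 1 library left out. Those counts show how the calls move, not how the members compare with all features.

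Other than for starved against control leaves of day 3, the letters were not taken as pairs, and whether they pair samples in roots is not settled by these values. The correlations of deviations were -0.648 to 0.329 for starved leaves of day 3 and day 1, -0.489 to 0.686 for control roots of day 6 and day 1, 0.093 to 0.286 for control roots of day 3 and day 1 and -0.028 to 0.252 for leaf and root, and the best match had the own letter for 1, 3, 4 and 2 of 4 libraries. The median log2 fold change of the members kept its direction under every alternative run for starved leaves of day 3 against day 1 (-0.90 to -0.43) and for control roots of day 6 against day 1 (-0.41 to -0.28).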
